A study of Mus musculus with 15 samples.

Results

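The 10 genes described here encode mouse aldo-keto reductases of subfamilies 1B (Akr1b3, Akr1b7 and Akr1b8) and 1C (Akr1c6, Akr1c12, Akr1c13, Akr1c14, Akr1c18, Akr1c19 and Akr1c20). They were taken by name from a deposited table of read counts for 23284 gene symbols, and the names were chosen on measured values in these same libraries. Their levels, fold changes and calls are therefore given as a description, with no test of the genes as a group. RNA was sequenced from 15 mouse liver samples in a study of how loss of Hmgb1, a chromatin protein that dying cells also release as an alarm signal, bears on chemically induced liver tumours.

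Aldo-keto reductases are soluble enzymes that use NADPH to reduce aldehydes and ketones to alcohols. The 1B enzymes act on sugars, retinaldehyde and aldehydes from lipid oxidation, and the 1C enzymes are hydroxysteroid dehydrogenases that set how much active steroid a cell keeps. Liver is rich in 1C enzymes, where they also take part in bile acid and xenobiotic metabolism. Human AKR1B10, a relative of the mouse 1B genes, is widely known as a gene that is raised in liver cancer.

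There were 6 liver tumours from floxed control mice (genotype Hgmb1fl/fl in the labels' spelling), 6 liver tumours from mice in which Albumin-Cre, active in liver epithelium, deletes Hmgb1 (Hgmb1Dhep in that spelling), and 3 normal livers of control C57Bl/6 mice for which no treatment is named. All 12 tumours came from mice given the mutagen diethylnitrosamine (DEN, 25 mg/kg at day 15 of life) and then the liver toxin carbon tetrachloride (CCl4, 0.5 µl/g weekly from week 8 for 15 weeks). Genotype is thus the labelled difference between the tumour groups, while tumour, DEN, CCl4 and genotype (floxed or deleted against C57Bl/6) cannot be told apart against normal liver. Other cells of the tumour keep Hmgb1, and the labels give neither sex, age at collection, litter nor batch, nor do they say whether tumours of a group came from separate mice, so the p-values below measure the spread between these samples.

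The libraries of the floxed tumours held 20191452 to 30929442 counts, those of the Hmgb1-deleted tumours 18973246 to 26293378 and those of the normal livers 23193714 to 26997782. Levels are in CPM, read counts after TMM scaling to 1 shared library size, and a gene with 0 counts in a library may lie at up to 0.11 to 0.169 CPM (3 counts, counting error only). Hmgb1 itself was at 23.3 to 31.8 CPM in floxed and at 9.59 to 17.8 CPM in deleted tumours, with no overlap (log2 fold change -0.90 ± 0.143, SE, adjusted p = 0.00509 by edgeR). The Hmgb1-deleted tumours were a mixed group: on the first principal component, with 46.8% of the variance, tumours 3, 4 and 6 lay nearest to normal liver, and on the second, with 15.8%, tumours 2 and 5 lay apart from all others. Hepatocyte markers summed to 113000 to 296000 CPM in floxed tumours, 77300 to 178000 CPM in deleted tumours and 112000 to 140000 CPM in normal livers. In bulk tissue, fewer cells of a type and less RNA per cell cannot be told apart.

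The promoters of the members whose levels moved farthest are shown first, since the Akr1c genes among them sit close together on chromosome 13 and yet moved in opposite directions. RefSeq sequence of build GRCm38.p6 was matched for 8 of the 10 members, and the build differs from the mm9 build of the counts. Akr1b7 and Akr1b8 lie on chromosome 6, and the 6 matched Akr1c genes lie on chromosome 13. Each sequence is the 250 bases before the annotated start, read 5′ to 3′ on the gene's strand. Capitals mark matches, on either strand, to 2 of 6 motifs searched, the TATA box (TATAAA) and the CCAAT box (CCAAT). The windows are Akr1c18 at chr13:4150647-4150896 (minus strand) and Akr1b7 at chr6:34412112-34412361 (plus strand), which were high in tumours, and Akr1c6 at chr13:4434093-4434342 and Akr1c14 at chr13:4059341-4059590 (both plus strand), which were low there.
Akr1c18: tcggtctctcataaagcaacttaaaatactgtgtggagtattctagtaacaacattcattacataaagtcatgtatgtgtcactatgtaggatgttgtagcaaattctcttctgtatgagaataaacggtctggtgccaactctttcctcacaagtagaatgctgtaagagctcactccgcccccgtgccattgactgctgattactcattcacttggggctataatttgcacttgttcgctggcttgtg
Akr1b7: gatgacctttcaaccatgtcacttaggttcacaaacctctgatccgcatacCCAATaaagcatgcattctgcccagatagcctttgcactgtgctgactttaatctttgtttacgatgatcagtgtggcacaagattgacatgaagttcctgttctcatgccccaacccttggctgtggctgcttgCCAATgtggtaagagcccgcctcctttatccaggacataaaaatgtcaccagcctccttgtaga
Akr1c6: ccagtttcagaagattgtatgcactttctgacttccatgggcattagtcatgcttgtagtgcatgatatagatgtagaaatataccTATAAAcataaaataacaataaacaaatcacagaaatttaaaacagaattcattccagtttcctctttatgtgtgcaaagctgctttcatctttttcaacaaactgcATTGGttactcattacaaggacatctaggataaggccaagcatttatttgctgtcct
Akr1c14: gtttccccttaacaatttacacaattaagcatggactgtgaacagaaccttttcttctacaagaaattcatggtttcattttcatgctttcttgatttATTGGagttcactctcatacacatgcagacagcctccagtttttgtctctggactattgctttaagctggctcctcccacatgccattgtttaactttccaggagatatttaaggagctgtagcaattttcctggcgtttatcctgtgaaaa
The Akr1c18 window held none of the 6 motifs. Akr1b7 held 2 CCAAT boxes, starting 199 and 64 bases before the start, and Akr1c6 and Akr1c14 held 1 each. Akr1c6 also held a match to the TATA box, starting 164 bases before the start. Akr1b8 held one on the other strand (TTTATA), starting 159 bases before the start. Among 32851 windows of the same length, 33.8% held CCAAT and 12.4% held TATAAA. The AP-1 site (TGACTCA, 4.46% of windows), the antioxidant response element that NRF2 binds (TGACNNNGC, 10.2%) and the HNF1 half-site (GTTAAT, 6.43%) were in none of the 8 member windows, and the STAT5 site (TTCNNNGAA, 7.02%) was in that of Akr1c19 only. No marked match overlapped another. These are matches of letters in these windows, not sites of binding.

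The members differ in how well short reads tell them apart. The longest open reading frames of Akr1c12 and Akr1c13 are 96.2% identical, and 28.6% of the 50-base words in the transcript of either one also occur in the other. Reads of the pair may therefore have been split, shared or dropped, and their values are uncertain. Those of Akr1c6 and Akr1c20 are 92.3% identical, and the other pairs of Akr1c members range from 72.4% to 77.8%. Akr1b7 shares 13.3% of its words with Gm13857 and 1.1% with Akr1b10, and Akr1b8 shares 2.4% with Akr1b10. Akr1c6 and Akr1c20 share 2.1% and 2.2% of their words with one another, Akr1c18 shares 0.6% with Akr1cl, and Akr1c14 and Akr1c19 share none with another gene. Akr1b3, aldose reductase of the polyol pathway, was listed with 1 count in 1 floxed tumour and with 0 in the other 14 libraries. Since 86.2% of its words recur in other genes, 82.4% in Gm38056 alone, its level in these tissues cannot be read from the table, and 9 of 10 members were tested.

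Akr1c18, which converts progesterone to an inactive steroid, changed most. It had 1, 5 and 3 counts in the normal livers, or 0.0406, 0.204 and 0.148 CPM. In floxed tumours it was at 159 to 385 CPM with a median of 236 CPM. In Hmgb1-deleted tumours it ran from 0.410 to 163 CPM with a median of 45.7 CPM. Every tumour lay above every normal liver, but the Hmgb1-deleted tumours spread over more than the floxed ones: tumours 3, 6, 4 and 1 were at 163, 119, 63.5 and 27.9 CPM, while tumours 2 and 5 were at 0.557 and 0.410 CPM (15 and 11 counts).

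Against normal liver the log2 fold change of Akr1c18 was 10.87 ± 0.552 (SE) in floxed and 8.86 ± 2.4 in Hmgb1-deleted tumours, both called higher. As a ratio of the mean to the 9 pooled normal counts, the floxed tumours were 1960-fold higher (95% interval 1030 to 4280) and the Hmgb1-deleted tumours 483-fold higher (254 to 1060), intervals that cover the counting error of the normal livers only. The second call ended when any 1 normal liver was left out (adjusted p up to 0.0826). Between the tumour groups, 5 of 6 Hmgb1-deleted tumours lay below every floxed one and the means were 62.5 ± 66.8 CPM (SD, n = 6) against 253 ± 86.8 CPM (SD, n = 6). That difference, -2.00 ± 0.999, was not called by edgeR, nor under any of 22 alternative settings, in which the log2 fold change ran from -4.72 to -1.44.

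Akr1b7, a reductase best known from the adrenal cortex and vas deferens, followed the same order of groups at a lower level. It was at 0.122, 0.204 and 0.246 CPM in normal livers, or 13 counts in all. Floxed tumours held 4.23 to 38.2 CPM with a median of 12.7 CPM, and Hmgb1-deleted tumours held 1.78 to 6.55 CPM with a median of 5.09 CPM. Both tumour groups lay wholly above normal liver. Floxed tumours 1 and 2 were highest at 38.2 and 34.9 CPM, and Hmgb1-deleted tumour 2 was the lowest of all tumours.

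Relative to the pooled normal counts, Akr1b7 was 101-fold higher (59.0 to 189) in floxed tumours and 24.8-fold higher (14.5 to 46.6) in Hmgb1-deleted tumours. The log2 fold changes were 6.60 ± 0.91 and 4.59 ± 0.547, both called. Akr1b7 was also called lower in Hmgb1-deleted than in floxed tumours, by -2.00 ± 0.501, with means of 4.65 ± 1.95 CPM and 18.9 ± 14.1 CPM (SD, n = 6 each) and 2 of 6 tumours below every floxed one. That call ended in 9 of 22 alternatives, among them leaving out floxed tumour 1 (-1.68) or 2 (-1.73) or any 1 of Hmgb1-deleted tumours 3 to 6, with adjusted p up to 0.0889.

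Akr1b8, which reduces retinaldehyde and lipid aldehydes, was detectable in normal liver at 2.72, 2.73 and 2.76 CPM. It was at 4.02 to 23.0 CPM in floxed tumours, median 6.93 CPM, and at 2.2 to 5.97 CPM in Hmgb1-deleted tumours, median 4.50 CPM. All floxed tumours exceeded normal liver (log2 fold change 1.8 ± 0.524, called, though the call ended without any 1 normal liver, adjusted p up to 0.0592), whereas 4 of 6 Hmgb1-deleted tumours did (0.63 ± 0.325, not called). The highest value, 23.0 CPM, came from floxed tumour 5, whose stellate and myofibroblast markers summed to 590 CPM against 63.6 to 98.8 CPM in the other floxed tumours. It also had the highest endothelial sum of its group, 348 against 130 to 170 CPM, and the lowest hepatocyte sum, 113000 CPM. The part of these cells in the Akr1b8 value was not tested. Between the tumour groups the difference of -1.15 ± 0.402 was not called by edgeR and was called by DESeq2 (adjusted p = 0.0341).

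**Figure D1:**
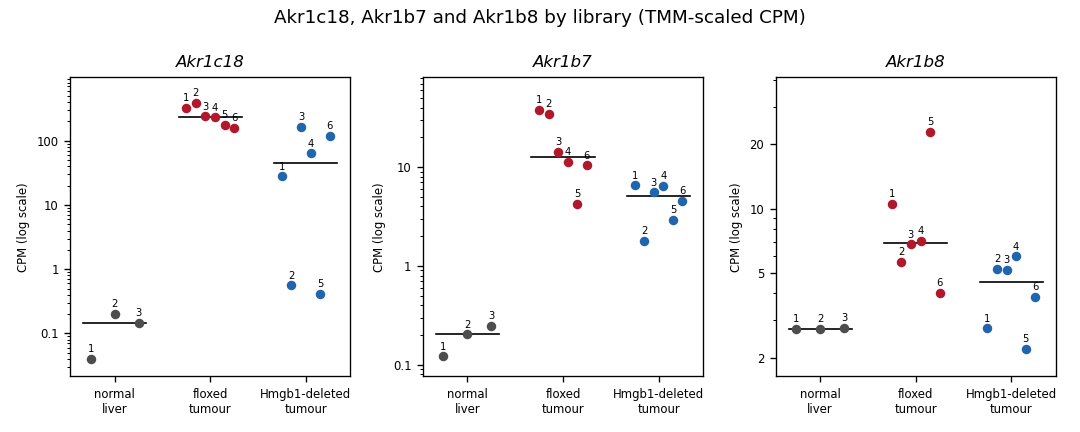
Akr1c18, Akr1b7 and Akr1b8 in each library, as TMM-scaled CPM on a log axis that differs between panels. Points are libraries with their replicate number and lines are group medians. Akr1c18 and Akr1b7 are higher in every tumour than in every normal liver, and Akr1c18 in Hmgb1-deleted tumours 2 and 5 (0.557 and 0.410 CPM) lies far below the other tumours.

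Because the adrenal cortex is rich in Akr1b7 and Akr1c18, markers of steroid-making tissue were read beside them. Cyp11b1, the enzyme that completes corticosterone synthesis, was at 0 in all 15 libraries, and Cyp11a1, which starts steroid synthesis from cholesterol, was at most 0.199 CPM. The 5 markers summed to 5.62 to 75.1 CPM in floxed tumours, 2.91 to 24.6 CPM in Hmgb1-deleted tumours and 3.20 to 4.59 CPM in normal livers. The top of that range was Cyp21a1 in floxed tumour 6, at 72.2 CPM, and that tumour had the lowest Akr1c18 of the floxed group. Among Hmgb1-deleted tumours the order was the other way. Tumour 3 had the highest sum (24.6 CPM) and the highest Akr1c18 (163 CPM), and tumours 5 and 2 had the lowest sums (2.91 and 2.94 CPM) and the lowest Akr1c18. The cholangiocyte and progenitor markers, 6 of 6 detected, summed to 60.5 to 1770 CPM in floxed tumours, 205 to 6110 CPM in Hmgb1-deleted tumours and 67.4 to 79 CPM in normal livers. Most of each sum was 1 gene, Spp1, at up to 1685, 6024 and 69.8 CPM in the same order. None of the other markers of this list exceeded 61.3 CPM in any library. Hmgb1-deleted tumours 2 and 5, with the least Akr1c18, had 6110 and 1150 CPM summed over all 6 markers, the most in their group. They also had the least hepatocyte marker RNA of all libraries, 77300 and 96800 CPM. Floxed tumour 1 had a sum of 60.5 CPM over the 6 cholangiocyte and progenitor markers, with 325 CPM of Akr1c18. Floxed tumours 3, 4 and 5 had sums of 1330, 1570 and 1770 CPM, above that of Hmgb1-deleted tumour 5, with 241, 230 and 179 CPM of Akr1c18. The part of these cells in the Akr1c18 values was not tested.

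Akr1c6, the liver enzyme that interconverts active and inactive androgens and oestrogens, was the most abundant member in normal liver, at 1530, 1540 and 1709 CPM. Floxed tumours held 145 to 385 CPM, median 182 CPM. Hmgb1-deleted tumours held 125 to 771 CPM, median 398 CPM. Neither tumour group reached the normal range. Within the Hmgb1-deleted group, tumours 3, 4 and 6 were above every floxed tumour at 511, 771 and 542 CPM, and tumour 5 was below all of them at 125 CPM.

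The floxed tumours kept 13.8% of the normal mean of Akr1c6 (log2 fold change -2.85 ± 0.315) and the Hmgb1-deleted tumours 26.2% (-1.93 ± 0.446), and both falls were called. Between tumour groups the difference of 0.94 ± 0.396 was not called. It was called by edgeR once tumours 2 and 5 were left out (adjusted p = 0.0476). Those tumours lay apart in these same data, and tumour 5 had the least Akr1c6 of all tumours, so that call is no separate test.

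Akr1c14, a hydroxysteroid dehydrogenase that inactivates androgens and acts on bile acid intermediates, fell less far. It was at 517, 553 and 564 CPM in normal livers, at 81.2 to 196 CPM (median 122 CPM) in floxed tumours and at 182 to 462 CPM (median 320 CPM) in Hmgb1-deleted tumours. Of the Hmgb1-deleted tumours, 4 of 6 lay above every floxed one and all 6 lay below every normal liver. The floxed tumours were at 23.1% of the normal mean (-2.11 ± 0.258, called) and the Hmgb1-deleted tumours at 57.8% (-0.78 ± 0.31, not called). Hmgb1-deleted tumours exceeded floxed tumours by 1.34 ± 0.295, a call that ended in 2 of 22 alternatives, the replicate block and the removal of tumours 3, 4 and 6 (adjusted p up to 0.0871).

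Akr1c19, which reduces a range of foreign carbonyl compounds, and Akr1c20, a further liver hydroxysteroid dehydrogenase, had the same order of group medians. Akr1c19 was at 62.8, 71.6 and 75.8 CPM in normal livers, 6.97 to 31.4 CPM (median 23.3 CPM) in floxed tumours and 19.6 to 108 CPM (median 52.0 CPM) in Hmgb1-deleted tumours. Akr1c20 was at 86.7, 97.2 and 98.4 CPM in normal livers, 22.4 to 64.1 CPM (median 42.7 CPM) in floxed tumours and 61.6 to 89.2 CPM (median 68.0 CPM) in Hmgb1-deleted tumours. For each gene, every floxed tumour was below every normal liver and 5 of 6 Hmgb1-deleted tumours were above every floxed one.

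Akr1c19 and Akr1c20 fell in floxed tumours by 1.68 ± 0.345 and by 1.11 ± 0.241 on the log2 scale, and both were called higher in Hmgb1-deleted than in floxed tumours, by 1.41 ± 0.399 and 0.75 ± 0.201. These last calls rest on few libraries: that of Akr1c19 ended in 16 of 22 alternatives and that of Akr1c20 in 11, with adjusted p up to 0.254 and 0.182, and both ended without any 1 of floxed tumours 1 to 4 or of Hmgb1-deleted tumours 2, 3, 4 and 6. Against normal liver, Akr1c19 in Hmgb1-deleted tumours differed by -0.29 ± 0.411 and was not called, and Akr1c20 differed by -0.37 ± 0.127 and was called, a call that ended in 14 of 20 alternatives (adjusted p up to 0.597).

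Akr1c12 and Akr1c13, near-identical enzymes that oxidise hydroxysteroids and other alcohols, had the smallest fold changes of the 9 tested members between floxed tumours and normal liver and between the tumour groups. Akr1c12 was at 82.4 to 106 CPM in normal livers, 30.0 to 66.9 CPM in floxed and 26.7 to 109 CPM in Hmgb1-deleted tumours. Akr1c13 was at 101 to 121 CPM in normal livers, 58.0 to 106 CPM in floxed and 43.5 to 141 CPM in Hmgb1-deleted tumours. Akr1c12 fell in floxed tumours (-0.76 ± 0.222, with the call lost without normal liver 3 and in the fit of all 15 samples), and Akr1c13 did not pass there (-0.40 ± 0.207). Neither was called in the other comparisons, with 0.25 ± 0.295 and 0.21 ± 0.296 between the tumour groups (-0.43 and -0.57 without tumours 3, 4 and 6). Both were called lower than normal liver once tumours 3, 4 and 6 were left out. Those tumours held the highest values of both genes in their group, so these calls are no separate test. The range within Hmgb1-deleted tumours was wide: for both genes, tumours 3, 4 and 6 were above every floxed tumour and tumour 2 was below every floxed tumour, the first 3 being also the tumours highest in Akr1c6.

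**Figure D2:**
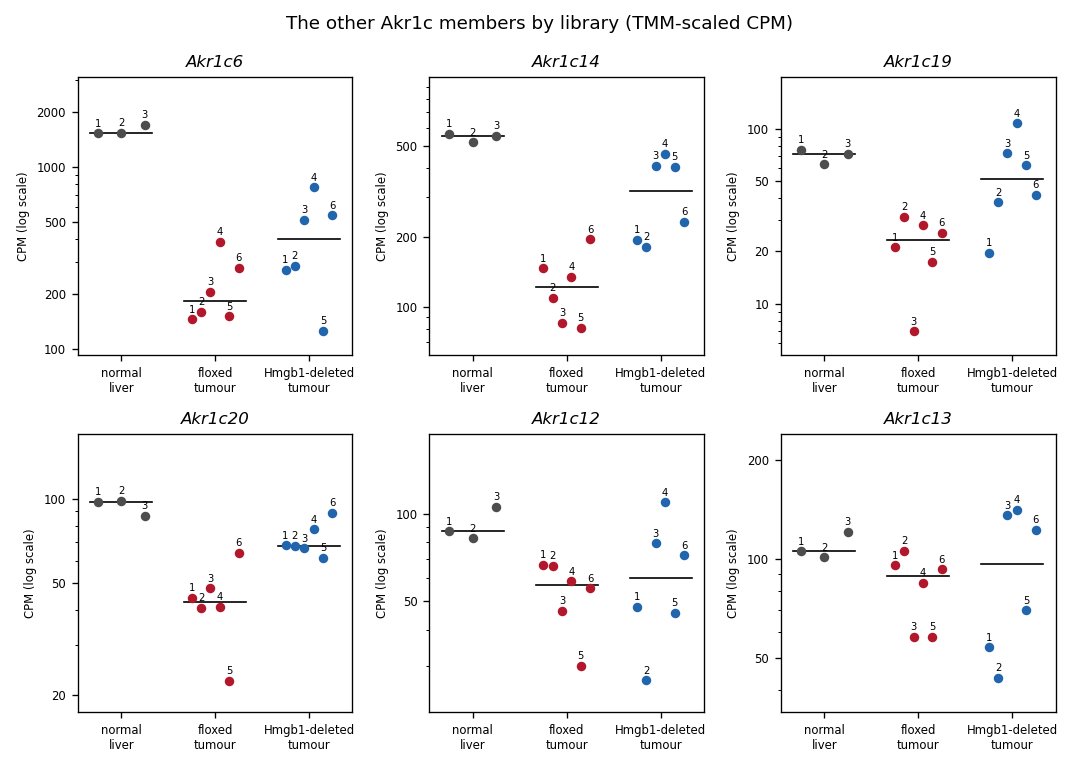
The other 6 Akr1c members in each library, as TMM-scaled CPM on log axes that differ between panels. Points are libraries with their replicate number and lines are group medians. Akr1c6, Akr1c14, Akr1c19, Akr1c20 and Akr1c12 are lower in every floxed tumour than in every normal liver, and Hmgb1-deleted tumours lie between or spread across both.

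Set side by side, floxed tumours against normal liver had 3 members called higher and 5 lower of 9 tested, with a median log2 fold change of -0.765 beside 0.0554 over all 13784 genes tested. In that comparison 48.7% of all genes tested were called, 24.9% of them higher and 23.8% lower as shares of the genes tested. Hmgb1-deleted tumours against normal liver had 2 members called higher and 2 lower, with a median of -0.292 beside 0.0507, where 34.7% of genes tested were called (18.1% higher, 16.6% lower). Hmgb1-deleted against floxed tumours had 3 called higher and 1 lower, with a median of 0.251 beside 0.0208 over 13433 genes, where 7.78% were called (4.45% higher, 3.33% lower). Since these comparisons share their groups and the members were chosen with such values in view, nothing is read from these counts beyond the genes they hold. No member separated the 2 tumour groups without overlap. The share of all genes that separate any 2 groups without overlap is not given here, so statements on overlap describe single genes only. Between tumour groups the member calls fell from 4 to between 1 and 3 when single libraries were left out, and to 0 by edgeR without Hmgb1-deleted tumours 3, 4 and 6 (6 members at an unadjusted p under 0.05).

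**Figure D3:**
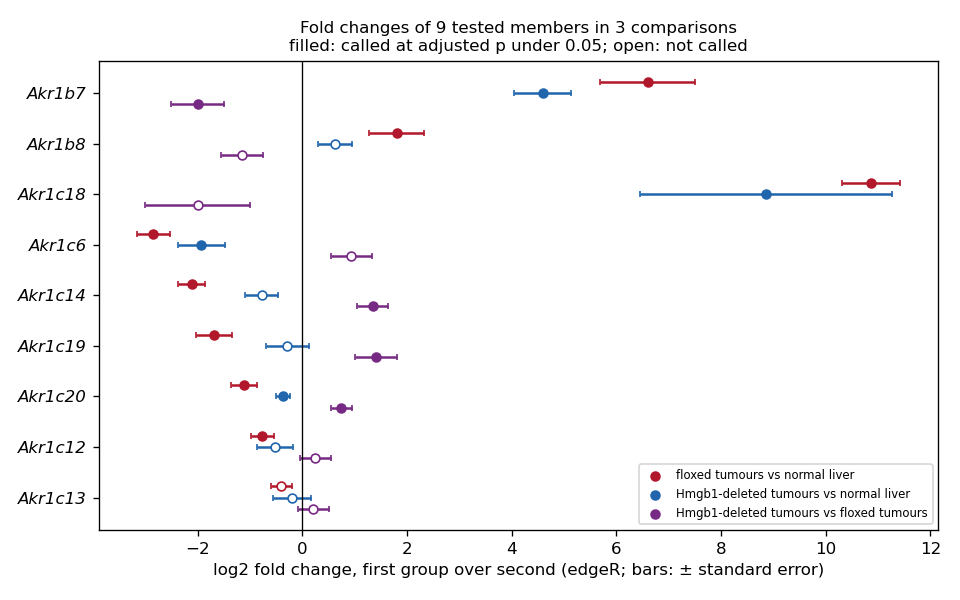
Log2 fold changes of the 9 tested members in 3 comparisons, with standard errors as bars, filled where the adjusted p was under 0.05. Akr1c18 and Akr1b7 lie far to the right in both comparisons with normal liver, and Akr1c18 in Hmgb1-deleted tumours has the widest bar (8.86 ± 2.4).

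Scaled by transcript length, which allows levels to be compared between genes, the make-up of Akr1c RNA differed between the groups. In normal liver Akr1c6 was highest at 1141 ± 72.0 CPM per kb (SD, n = 3), followed by Akr1c14 at 224 ± 9.997 CPM per kb. In floxed tumours Akr1c18 at 211 ± 72.3 CPM per kb and Akr1c6 at 158 ± 68.0 CPM per kb (SD, n = 6 each) came first and lay within each other's spread. In Hmgb1-deleted tumours Akr1c6 had the highest mean, 299 ± 168 CPM per kb, and Akr1c14 the next, 129 ± 51.0 CPM per kb. Their ranges overlapped (89.7 to 552 and 74.9 to 190 CPM per kb). Akr1c13 (75.0 ± 34.7), Akr1c20 (53.7 ± 7.48), Akr1c18 (52.1 ± 55.6), Akr1c12 (50.3 ± 23.4) and Akr1c19 (45.8 ± 25.0 CPM per kb) were not apart beyond their spread. Akr1b7 and Akr1b8 stayed at or below 14.7 CPM per kb on average in every group.

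Akr1c6 made up 67.9% to 69.8% of the length-scaled RNA of the 7 Akr1c members in normal livers, 16.9% to 40.0% in floxed tumours and 20.2% to 49.0% in Hmgb1-deleted tumours. Akr1c18 made up 0.0021% to 0.0107%, 22.2% to 47.7% and 0.077% to 14.3% of it. The share of Akr1c14 was 13.0% to 14.3% in normal livers, 6.69% to 13.5% in floxed tumours and 11.5% to 37.5% in Hmgb1-deleted tumours, the top value being that of tumour 5. Summed over all 10 members, reads were at 2506 ± 128 CPM (SD, n = 3) in normal livers, 829 ± 159 CPM in floxed and 1090 ± 453 CPM in Hmgb1-deleted tumours (SD, n = 6 each), a wide range of 651 to 1746 CPM. The Akr1b sum alone was 2.93 ± 0.0802, 28.4 ± 13.5 and 8.83 ± 2.61 CPM in the same order, with every floxed tumour at 14.4 CPM or more and every Hmgb1-deleted tumour at 12.4 CPM or less. These sums follow the members chosen and carry no test.

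**Figure D4:**
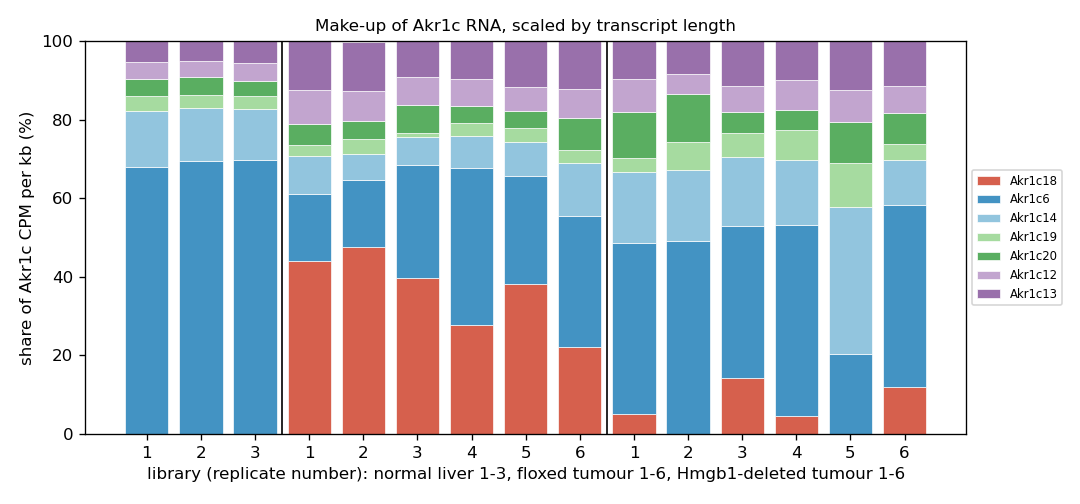
Share of each of the 7 Akr1c members in their summed CPM per kb, one stacked bar per library. Akr1c18 (red) is too small to see in normal livers and in Hmgb1-deleted tumours 2 and 5 and is 22.2% to 47.7% in floxed tumours. Akr1c6 is 67.9% to 69.8% in normal livers and at most 49.0% in any tumour.

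Other aldo-keto reductases of the table were read for comparison, with p-values adjusted over all genes tested by edgeR. Of these 10 genes, 8 were tested. There 2 rose and 2 fell in floxed tumours against normal liver, 2 rose and none fell in Hmgb1-deleted tumours against normal liver, and 1 rose and 1 fell between the tumour groups. Over all genes tested, 48.7%, 34.7% and 7.78% were called in the same order of comparisons. Akr1d1, the steroid reductase needed for bile acid synthesis, was at 196 ± 40.7 CPM in normal livers (SD, n = 3), 49.9 ± 19.5 CPM in floxed and 141 ± 43.6 CPM in Hmgb1-deleted tumours (SD, n = 6 each). In floxed tumours it fell by 1.97 ± 0.3 (adjusted p = 0.000473 by edgeR) and was higher in Hmgb1-deleted than in floxed tumours by 1.52 ± 0.293 (adjusted p = 0.00999), higher than every floxed tumour in 5 of 6, a call that held in all 22 alternatives. The order of its group means was that of every Akr1c member but Akr1c18, and also that of Akr1a1.

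Akr1b10, a close relative of Akr1b7 with 89.3% identity in the open reading frame, took the order of Akr1b7 and Akr1b8. It was at 1.31 ± 0.258 CPM in normal livers (SD, n = 3), 6.09 ± 1.34 CPM in floxed and 3.40 ± 0.830 CPM in Hmgb1-deleted tumours (SD, n = 6 each). It rose against normal liver in floxed tumours by 2.22 ± 0.277 (adjusted p = 0.000139 by edgeR) and in Hmgb1-deleted tumours by 1.39 (adjusted p = 0.00622). It was lower in Hmgb1-deleted than in floxed tumours (log2 fold change -0.82 ± 0.206, adjusted p = 0.0299, below every floxed tumour in 5 of 6), a call that ended in 11 of 22 alternatives (adjusted p up to 0.176). Akr1a1, the general aldehyde reductase, fell in floxed tumours by 0.51 ± 0.146 (adjusted p = 0.015), and Kcnab2, a potassium channel subunit of the same superfamily, rose there by 1.37 (adjusted p = 0.0378) and in Hmgb1-deleted tumours by 1.23 (adjusted p = 0.0171) at under 3 CPM. Calls of Akr1a1 and Kcnab2 in floxed tumours ended in 4 and 8 of 18 alternatives, and that of Kcnab2 in Hmgb1-deleted tumours in 5 of 20. Akr1e1, Akr7a5, Kcnab1 and Kcnab3 were called in no comparison, and Akr1c21 and Akr1cl were too low to test.

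Lists of enzymes that share substrates, cofactors or regulators with the members give the setting in which they moved. Over all genes tested, 24.9% were called higher and 23.8% lower in floxed tumours against normal liver. These shares were 18.1% and 16.6% in Hmgb1-deleted tumours against normal liver, and 4.45% and 3.33% between tumour groups. No list was tested as a set, and counts near these shares say nothing particular about a list. Among 17 tested steroid dehydrogenases and reductases, 3 rose and 9 fell in floxed tumours against normal liver (median -0.707). Srd5a1, which reduces testosterone and other steroids, fell by 3.03 ± 0.19, Hsd3b7 of bile acid synthesis by 2.66 ± 0.161 and Hsd17b11 by 2.04 ± 0.133 (adjusted p at most 3.2e-06 by edgeR). In Hmgb1-deleted tumours against normal liver, 1 rose and 8 fell (median -0.578). Srd5a1, Hsd3b7 and Hsd17b11 were among these falls (-1.21 ± 0.327, -1.80 ± 0.341 and -1.43 ± 0.354, adjusted p at most 0.0196 by edgeR). Hsd3b5, a male-biased liver steroid reductase, was lower there (-7.56 ± 0.744) and Hsd17b13, a lipid droplet enzyme, rose by 1.21 ± 0.231 (adjusted p = 0.000594 and 0.00544). Floxed tumours shared both changes against normal liver (-7.04 ± 0.916 and 1.075 ± 0.2, adjusted p = 0.000188 and 0.00154 by edgeR). Neither gene was called between the tumour groups. Between tumour groups 2 rose and none fell, Srd5a1 by 1.83 ± 0.281 and Hsd17b4 by 1.13 ± 0.215 (adjusted p = 0.00451 and 0.00948), and both were higher in all 6 Hmgb1-deleted tumours than in any floxed one. The call of Hsd17b4 ended in 1 of 22 alternatives.

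Genes of the aldehyde dehydrogenase family moved in both directions. Of 18 tested aldehyde dehydrogenases, 5 rose and 12 fell in floxed tumours against normal liver (median -1.26). Aldh18a1 of proline synthesis rose by 3.02 ± 0.24, while Aldh4a1 and Aldh6a1 of amino acid breakdown fell by 1.73 ± 0.174 and by 2.01 ± 0.214 (adjusted p at most 5.35e-05 by edgeR). In Hmgb1-deleted tumours against normal liver 3 rose and 4 fell (median -0.589). Aldh18a1 was again higher (2.60 ± 0.847) and Aldh4a1 and Aldh6a1 again lower (-1.36 ± 0.34 and -1.365 ± 0.429), with adjusted p at most 0.0395 by edgeR. Between tumour groups 6 of 17 rose and 1 fell (median 0.511). Aldh1a1, which makes retinoic acid, rose by 2.63 ± 0.299, its close copy Aldh1a7 by 2.48 ± 0.278 (adjusted p = 0.000878 for each) and Aldh3a2, which clears fatty aldehydes, by 1.67 ± 0.288 (adjusted p = 0.00675), all with no overlap between the groups. Reads of Aldh1a1 and Aldh1a7 may be shared.

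Carbonyl reductases and alcohol dehydrogenases, which act on substrates like those of the members, had 3 rises and 8 falls of 15 tested in floxed tumours against normal liver (median -0.98). Rdh16 and Adh4, which oxidise retinol and other alcohols, fell by 2.97 ± 0.142 and by 3.15 ± 0.278, while Cbr3, a carbonyl reductase, rose by 6.44 ± 0.654 from 0.427 CPM to 36.8 CPM (adjusted p = 9.09e-07, 1.82e-05 and 4.33e-05 by edgeR). In Hmgb1-deleted tumours against normal liver 2 rose and 3 fell (median -0.503), with Cbr3 up by 7.25 ± 0.531 and Cbr1 by 1.83 ± 0.321 (adjusted p = 0.000203 and 0.00399). Cbr1 was also called higher in floxed tumours than in normal liver (1.715 ± 0.325, adjusted p = 0.00172 by edgeR). Adh4 was also called lower in Hmgb1-deleted tumours than in normal liver (-1.345 ± 0.3, adjusted p = 0.00965 by edgeR), and Rdh16 was not called there. Between tumour groups 4 rose and none fell (median 0.563), among them Adh4 by 1.82 ± 0.303, Dhrs4 by 1.23 ± 0.219 and Rdh16 by 2.06 ± 0.39 (adjusted p = 0.00608, 0.00726 and 0.00944), of which the call of Dhrs4 ended in 1 of 22 alternatives. Cbr3 averaged 64.3 ± 25.3 CPM in Hmgb1-deleted and 36.8 ± 22.2 CPM in floxed tumours (SD, n = 6 each), a difference that was not called.

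The cofactor and the transcription factors were read next, beside the same shares of all genes tested. Of 10 genes that supply NADPH, 3 rose and 3 fell in floxed tumours against normal liver (median 0.104), with Pgd and G6pdx of the pentose phosphate pathway up by 1.70 ± 0.197 and 2.64 ± 0.494 and Me1, malic enzyme, down (-1.51 ± 0.214), at adjusted p = 8.72e-05, 0.00163 and 0.000297 by edgeR. Pgd and G6pdx were also called higher in Hmgb1-deleted tumours than in normal liver (1.636 ± 0.196 and 1.745 ± 0.317, adjusted p = 0.00105 and 0.00451). Me1 was not called there. In Hmgb1-deleted tumours against normal liver 5 rose and 1 fell (median 0.413), and between tumour groups 2 rose and none fell (median 0.25), Me1 by 1.05 ± 0.192 (adjusted p = 0.00825) and Idh2 by 0.92 ± 0.246 (adjusted p = 0.0384, a call that ended in 9 of 22 alternatives). Of 21 genes of NRF2, the factor that turns on detoxifying reductases under oxidative stress, and its targets, 8 rose and 2 fell in floxed tumours against normal liver (median 0.621), 12 rose and none fell in Hmgb1-deleted tumours against normal liver (median 0.958), and 4 rose and none fell between tumour groups (median 0.297). Slc7a11, the cystine carrier, was at 50.7 CPM in floxed and 33.9 CPM in Hmgb1-deleted tumours with 1 or no counts per normal liver, and Nqo1, a quinone reductase, rose in floxed tumours by 3.29 ± 0.465 (adjusted p = 0.000305). Nqo1 rose against normal liver in Hmgb1-deleted tumours too, by 3.44 ± 0.46 (adjusted p = 0.00155 by edgeR).

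Polyol and fructose genes, the pathway of Akr1b3, had none that rose and 4 of 7 that fell in floxed tumours against normal liver (median -0.926), 1 fall in Hmgb1-deleted tumours (median -0.519) and 1 rise between tumour groups (median 0.619). Khk, fructokinase, fell in floxed tumours by 0.79 ± 0.249 (adjusted p = 0.0237 by edgeR, a call that ended in 4 of 18 alternatives). The rise between tumour groups was Slc2a2, the liver glucose carrier, by 1.23 ± 0.336 (adjusted p = 0.0424), which ended in 13 of 22 alternatives. Of prostaglandin genes, whose products some members also make or remove, 6 of 11 rose and 2 fell in floxed tumours against normal liver (median 0.681), 3 of 12 rose and 2 fell in Hmgb1-deleted tumours (median 0.696), and 1 of 10 rose between tumour groups (median -0.0254). Ptgr1, a prostaglandin reductase, rose by 2.63 ± 0.153 in floxed and 1.90 ± 0.384 in Hmgb1-deleted tumours (adjusted p = 1.86e-06 and 0.00677), and Hpgd, which starts prostaglandin breakdown, fell in floxed tumours by 2.21 ± 0.277 and was higher in Hmgb1-deleted than in floxed tumours by 1.63 ± 0.343 (adjusted p = 0.000141 and 0.0145), the latter a call that ended in 1 of 22 alternatives.

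Among 16 tested liver transcription factors and nuclear receptors, none rose and 9 fell in floxed tumours against normal liver (median -0.879). Stat5b, which carries the growth hormone signal, fell by 1.38 ± 0.143, Nr1h4, the bile acid receptor, by 1.40 ± 0.151 and Nr1i3, a receptor for foreign compounds, by 2.33 ± 0.31 (adjusted p = 4.5e-05, 5.69e-05 and 0.000206 by edgeR). In Hmgb1-deleted tumours against normal liver none rose and 4 fell (median -0.589), Stat5b by 1.37 ± 0.134 and Nr5a2 by 1.37 ± 0.134 (adjusted p = 0.000556 each). Nr5a2 was also called lower in floxed tumours than in normal liver (-1.32 ± 0.21, adjusted p = 0.000614 by edgeR). Between tumour groups 1 rose and none fell (median 0.172), namely Nr1h4 by 0.86 ± 0.198 (adjusted p = 0.0211), a call that ended in 2 of 22 alternatives. Relations of these factors to the members were not tested.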

How the data were processed

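Poly-A RNA from 12 liver tumours and 3 normal livers was made into TruSeq libraries, per the labels' protocols. The authors deposited 1 table of raw read counts per gene symbol, not normalized. bcl2fastq 1.8.4, TopHat2 2.1.0, Bowtie2 2.2.4, HTSeq 0.6.1 and the build mm9 are named in the submitters' processing notes. Settings, annotation, strand and how multi-mapped reads were handled are not given in these sources, so near-identical copies and antisense genes are uncertain.

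Groups came from the labels. Counts were analysed in R 4.3.3 with edgeR 4.0.16: filterByExpr, TMM scaling and the robust quasi-likelihood F test on the 2 groups compared, with Benjamini-Hochberg adjustment over all genes tested and calls at an adjusted p under 0.05. Depth, 18973246 to 30929442 counts per library, sets the precision. CPM values are scaled by TMM over 15 libraries, standard errors come from the F statistic, and floors (3 counts) and 95% exact Poisson intervals cover counting error only. The fit was tested on simulated data. No pair of libraries of a group had a chi-square per degree of freedom under 26.3, so none was counted as a repeat. Alternatives were RLE, upper-quartile and no scaling factors, no filter, a 1 CPM filter, DESeq2 1.42.0, all 15 samples in 1 fit, the replicate number as a block, each library left out, and Hmgb1-deleted tumours 3, 4 and 6, or 2 and 5, left out. These subsets of Hmgb1-deleted tumours stood out on the principal components of the same data, so calls gained or lost there are descriptions only. Libraries numbered 1 to 3 were also fitted without the block, an alternative added after seeing the data.

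The members and the 9 companion and 10 marker lists were chosen with earlier results of these data known. Of 136 companion entries 135 were in the table. Named genes are the members, the other aldo-keto reductases, Hmgb1 and, per companion list and comparison, up to 3 called genes with the smallest p, some of them left out here. Promoters are RefSeq's for GRCm38.p6. Open reading frames, lengths and shared words come from GENCODE M21 transcripts of GRCm38 (the longest open reading frame of 1 transcript a gene), which served for these comparisons only.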

Additional observations from a re-analysis of the deposited data

Results flagged for a closer look

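In each group of 6 tumours, a gene was picked out where the gap between the highest or lowest library and its nearest neighbour, divided by the group's whole range, was above Dixon's 95% critical value for 6 samples. Chance alone picks about 1 in 20 groups, and 3 of 36 were picked. Akr1b8 in floxed tumour 5 was at 23 CPM, with the next tumour at 10.5 CPM and a ratio of 0.659. Akr1e1 in floxed tumour 1 was at 102 CPM, with the next at 48.8 CPM and a ratio of 0.775. Akr1c21, a low gene that was not tested, was at 0.845 CPM in floxed tumour 1, with the next at 0.118 CPM and a ratio of 0.92.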

How the results depend on the processing

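For Hmgb1-deleted against floxed tumours the count of members called went from 4 to 1 with the replicate block, 0 by edgeR without Hmgb1-deleted tumours 3, 4 and 6 (6 at an unadjusted p under 0.05), 2 without tumours 2 and 5 (Akr1c14, and Akr1c6 as a new call), and 1 to 3 when single libraries were left out. Over all genes, 1045 calls became 2063 with DESeq2, 1629 with all 15 samples in 1 fit and 589 to 1054 without single libraries, lowest without Hmgb1-deleted tumour 4. The 24 companion calls became 15 to 24 and, without tumours 3, 4 and 6, 14. For floxed tumours against normal liver, the 8 member calls ran from 6 to 8 and the 6714 calls over all genes from 4860 to 6966 when single libraries were left out. For Hmgb1-deleted tumours against normal liver, the 4 member calls ran from 2 to 4, lowest without any 1 normal liver, and became 7 without tumours 3, 4 and 6. There the 4787 calls over all genes became 3055 with the replicate block and 2113 to 4912 without single libraries, and the 51 companion calls became 23 to 58 and, without tumours 3, 4 and 6, 80. The causes were not tested. Same-numbered tumours deviated together with correlations of -0.194 to 0.175. Such values cannot show whether litter or batch is shared by number, which the labels do not give. Of the fold changes of named genes, 3454 alternative values kept their side of the threshold, 219 lost and 42 gained a call. No called fold change changed sign, but 73 values of 27 uncalled ones did. Without scaling factors the split between tumour groups was 982 higher and 257 lower against 598 and 447 (median shift of 0.183), and against normal liver that of Hmgb1-deleted tumours was 2969 and 1062 against 2492 and 2295 (shift of 0.282). Upper-quartile scaling gave 4363 and 2509 against 3437 and 3277 in floxed tumours (shift of 0.176) and 3390 and 1578 in Hmgb1-deleted tumours (shift of 0.154). Depth limits Akr1c21, Akr1cl and the normal levels of Akr1c18 and Akr1b7.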
